A study of Mus musculus with 15 samples.

Results

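The genes that make and release the sterol regulatory element binding proteins (SREBPs) were followed in the posterior eyecups of Tmem135 mutant mice. The group holds 7 of the 55421 genes listed in the count files: the transcription factor genes Srebf1 and Srebf2, the escort gene Scap, the retention genes Insig1 and Insig2, and the protease genes Mbtps1 and Mbtps2. They were taken as a named list that was drawn up with earlier results of these data known. All 7 were counted in all 15 libraries and passed the filters on low variance and low counts. RNA-Seq was performed on the eyecup, which here is the retinal pigment epithelium (RPE), choroid and sclera without the neural retina, of mice aged 2.5 months on the C57BL/6J background. There were 4 wild-type (WT) mice, 6 mice with 1 mutant allele (Tmem135 FUN025/+, written FUN025/+) and 5 mice with 2 mutant alleles (Tmem135 FUN025/FUN025, written FUN025/FUN025), with 1 library per labelled replicate. The methods describe eyecups pooled from individual mice without saying how many eyecups a library holds, and each library is called a mouse here. FUN025 is a germline mutation that every cell of the mouse carries, so it is not restricted to the RPE, and males and females were used without the sex of each mouse being labelled. The paper's supplement gives the number of each sex per genotype, and the balance of the sexes differs between genotypes.

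SREBPs are made as precursors in the membrane of the endoplasmic reticulum, where they bind the protein SCAP. When sterols are plentiful, INSIG proteins hold SCAP and the precursor back. When sterols are scarce, SCAP carries the precursor to the Golgi, where the proteases S1P (from Mbtps1) and S2P (from Mbtps2) cut it and free a transcription factor that enters the nucleus. Srebf2 encodes SREBP-2, which mainly drives the genes of cholesterol synthesis and uptake, and Srebf1 encodes SREBP-1a and SREBP-1c, of which SREBP-1c mainly drives fatty acid synthesis and desaturation. Insig1 is itself an SREBP target, while liver transcripts of Insig2 are known to follow other signals. The RPE handles large amounts of lipid, since it takes up photoreceptor outer segments and passes cholesterol between blood and retina. RNA counts measure transcripts and not the cut, nuclear protein.

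The 250 bases before the start of 4 transcripts are shown, chosen by the results below. Relative to WT, Insig1 rose in both mutant genotypes, and Srebf2 and Srebf1 rose in FUN025/FUN025 but did not pass in FUN025/+ eyecups. Insig2, the close relative of Insig1, did not pass relative to WT in the edgeR fit over all genes. Sequences are from RefSeq on GRCm38.p6, in which all 7 genes had a window and 12 start sites in all. Capitals mark matches, on either strand, to TCACCCCA (the core of the classical sterol regulatory element), CCAAT (the NF-Y box, read as ATTGG on the other strand), GGGCGG (the Sp1 box, CCGCCC on the other strand), CACGTG (the E-box) and GGGTTACT (the first bases of the element bound by the liver X receptor, AGTAACCC on the other strand). None of the matches in the printed windows overlap each other. Each sequence runs 5′ to 3′ along its gene and ends just before the start site. The first is Insig1 at chr5:28071162-28071411 (plus strand), the second Insig2 at its outermost start at chr1:121332590-121332839 (minus strand), the third Srebf2 at chr15:82147019-82147268 (plus strand) and the fourth Srebf1 at its innermost start at chr11:60210472-60210721 (minus strand).
Insig1: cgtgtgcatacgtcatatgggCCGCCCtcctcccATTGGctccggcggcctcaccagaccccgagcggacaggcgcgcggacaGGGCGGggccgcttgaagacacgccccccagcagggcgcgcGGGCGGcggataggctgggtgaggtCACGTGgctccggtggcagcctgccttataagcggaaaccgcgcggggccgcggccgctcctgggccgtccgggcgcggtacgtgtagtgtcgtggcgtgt
Insig2: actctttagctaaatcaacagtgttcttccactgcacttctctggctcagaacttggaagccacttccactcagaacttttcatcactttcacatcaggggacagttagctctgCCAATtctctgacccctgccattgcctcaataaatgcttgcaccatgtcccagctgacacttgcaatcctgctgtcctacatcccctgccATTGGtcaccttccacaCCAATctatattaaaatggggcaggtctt
Srebf2: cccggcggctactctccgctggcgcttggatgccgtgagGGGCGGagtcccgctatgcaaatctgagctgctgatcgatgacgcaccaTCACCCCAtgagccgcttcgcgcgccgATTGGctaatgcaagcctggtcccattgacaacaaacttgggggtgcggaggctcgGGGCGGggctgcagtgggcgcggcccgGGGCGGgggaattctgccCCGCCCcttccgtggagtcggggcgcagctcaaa
Srebf1: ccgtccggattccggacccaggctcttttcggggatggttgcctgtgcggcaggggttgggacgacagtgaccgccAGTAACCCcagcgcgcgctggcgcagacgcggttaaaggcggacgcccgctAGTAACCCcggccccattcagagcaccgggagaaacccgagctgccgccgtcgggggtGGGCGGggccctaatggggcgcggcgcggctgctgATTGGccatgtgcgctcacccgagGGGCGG

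The sterol element core was found in the Srebf2 window, 162 to 155 bases before the start, and in no window of the other 6 genes, where 1.34% of all 32851 RefSeq windows hold it. The Srebf2 window also had 1 NF-Y box and 4 Sp1 boxes. The Insig1 window had 1 NF-Y box, 3 Sp1 boxes and 1 E-box, and the outermost Insig2 window had 3 NF-Y boxes, while the windows of its other 2 start sites had 1 Sp1 box each and no NF-Y box. The innermost Srebf1 window had 2 matches to the liver X receptor letters, which 0.484% of all windows hold, beside 1 NF-Y box and 2 Sp1 boxes. The outermost Srebf1 window had 1 NF-Y box and the middle one 2 Sp1 boxes, neither with the liver X receptor letters. These letters were chosen because they are known from the Srebf1 promoter, so their presence there is a description. The NF-Y box, the Sp1 box and the E-box were in 33.8%, 32.7% and 6.02% of all windows. Of the 15 sterol target genes with a window (the lists are introduced with the targets), 14 held an NF-Y box and 14 an Sp1 box in at least 1 window, and 1, Hmgcs1, held the sterol element core. Of the 13 fatty acid targets with a window, 8 held an NF-Y box and 7 an Sp1 box, 1 (Gpam) held the sterol element core and 1 (Fasn) the liver X receptor letters. Counted by gene, 37.5% of the 27025 genes with a window hold an NF-Y box, 35.4% an Sp1 box, 1.54% the sterol element core and 0.555% the liver X receptor letters. A match of letters does not show that a factor binds there, and which start sites the eyecup uses was not measured.

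Each library held 10903183 to 20029919 counts in genes. CPM is the count of a gene per library size after TMM scaling, brought to a common size for all libraries, and 3 counts, taken as the floor, were worth at most 0.282 CPM, which covers counting error only. The 7 genes lay far above it, with counts per library from 533 for Mbtps2 to 4026 for Srebf1. All 4 WT libraries were deeper than all 11 mutant libraries, so depth and the WT genotype cannot be told apart by design. The 8 RPE markers summed to between 18391 and 23968 CPM in the 3 genotypes, with a count for each marker in every library. The 10 rod markers summed to 241 to 2386 CPM in WT, 89.8 to 685 CPM in FUN025/+ and 93.8 to 425 CPM in FUN025/FUN025 eyecups, and the 10 skeletal muscle markers to 5300 to 10087, 2871 to 7399 and 4398 to 5381 CPM. No rod or muscle marker was at 0 in any library. The 6 endothelial markers summed to 813 to 944, 636 to 880 and 589 to 729 CPM. In bulk tissue, fewer cells of a type and less RNA per cell cannot be told apart. Tmem135 itself was at 64.0 ± 2.99 CPM (SD, n = 4) in WT, 75.0 ± 7.30 CPM (SD, n = 6) with 1 and 88.3 ± 4.57 CPM (SD, n = 5) with 2 mutant alleles, and gene counts do not show which allele a read came from.

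Over the 15 libraries together all 7 genes were well expressed, with Mbtps2 the lowest at the 72.9th percentile of the mean CPM of the 18979 genes tested. Per kilobase of annotated exon, the WT level was highest for Srebf1, at 29.5 ± 3.07 CPM per kb (SD, n = 4). Insig2 followed at 24.9 ± 0.641 CPM per kb and Insig1 at 24.6 ± 3.64 CPM per kb. The highest WT mouse had 29.1 CPM per kb of Insig1 and the lowest less than any for Srebf2, so its place between Srebf1 and Srebf2 in this order was within the spread. Srebf2 was at 22.7 ± 1.09, Scap at 19.7 ± 0.918, Mbtps1 at 16.4 ± 0.868 and Mbtps2 at 4.24 ± 0.214 CPM per kb. The last 4 did not overlap each other, and the S2P transcript was the scarcest of the group in every mouse. In FUN025/FUN025 eyecups the order changed at the top, with Insig1 at 57.2 ± 6.05 CPM per kb (SD, n = 5) above Srebf1 at 49.3 ± 3.38 CPM per kb, ranges that overlap (52.3 to 66.3 and 45.0 to 53.6). Annotated exon lengths sum over all transcripts of a gene, and which transcripts were used was not measured here.

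**Figure D1:**
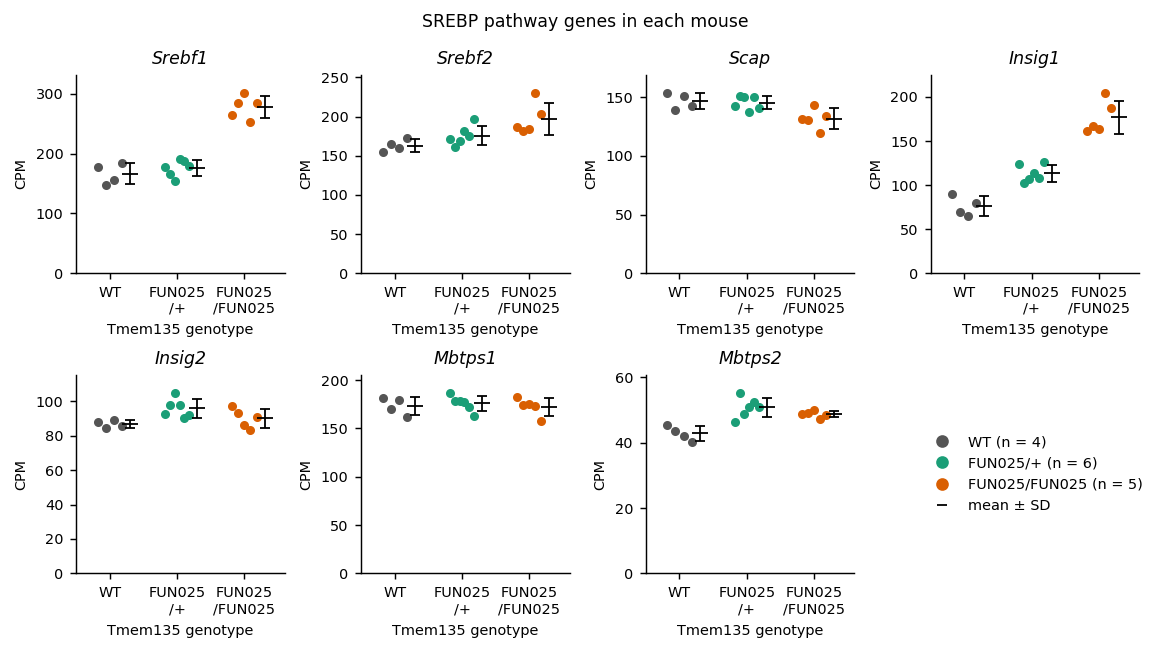
Level of each of the 7 genes in CPM (vertical axis, from 0) by Tmem135 genotype (horizontal axis), with 1 point per mouse and a bar for the mean ± SD of 4 WT, 6 FUN025/+ and 5 FUN025/FUN025 mice. Insig1 stepped up with each allele, Srebf1 was higher in the 5 FUN025/FUN025 mice with WT and FUN025/+ overlapping, and the Mbtps1 ranges of the 3 groups overlapped.

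Insig1, the retention protein whose gene SREBPs switch on, rose with each mutant allele, and relative to WT it had the largest log2 fold change of the 7 genes in both mutant genotypes. The WT mice were at 90.0, 68.9, 65.0 and 79.8 CPM. The FUN025/+ mice ran from 102 through a median of 111 to 126 CPM. The FUN025/FUN025 mice were at 162, 167, 164, 205 and 187 CPM. No mouse of one genotype reached the range of another, so the 3 groups were separate. The log2 fold change relative to WT was 0.58 in FUN025/+ (SE 0.094, adjusted p = 6.88e-04, edgeR quasi-likelihood test over all genes with Benjamini-Hochberg adjustment) and 1.22 in FUN025/FUN025 eyecups (SE 0.098, adjusted p = 5.05e-07). The second is a linear fold of 2.33 (95% interval 2.02 to 2.69). The direct comparison of the mutant genotypes gave a log2 fold change of 0.64 (SE 0.086, adjusted p = 7.28e-04). With the rod and muscle marker levels as covariates the FUN025/+ change was 0.77 with a wider SE of 0.20, and no longer passed (adjusted p = 0.107). Leaving out any 1 mouse kept the FUN025/+ change between 0.52 and 0.67, with an adjusted p of at most 0.00356.

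Insig2, the related retention gene, differed little. The WT mice were at 87.7, 84.2, 89.1 and 85.4 CPM, the FUN025/+ mice ran from 90.4 through a median of 95.1 to 105 CPM, and the FUN025/FUN025 mice were at 97.0, 93.3, 85.9, 83.5 and 90.7 CPM. Every FUN025/+ mouse was above every WT mouse, and the FUN025/FUN025 mice overlapped both. The log2 fold change relative to WT was 0.15 in FUN025/+ eyecups (SE 0.051, adjusted p = 0.0640) and 0.057 in FUN025/FUN025 eyecups (95% interval -0.055 to 0.17, adjusted p = 0.516). By DESeq2 the FUN025/+ difference passed (log2 fold change 0.15, adjusted p = 0.0393), as it did in libraries thinned to the shallowest one (0.18, adjusted p = 0.0440) and in a fit of protein-coding genes alone (0.17, adjusted p = 0.0370), and with the rod and muscle covariates it changed sign to -0.048.

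Srebf1, the gene of SREBP-1a and SREBP-1c, was raised in the eyecups with 2 mutant alleles. The WT mice were at 178, 148, 156 and 184 CPM. The FUN025/+ mice ran from 155 through a median of 178 to 192 CPM, overlapping the WT range. The FUN025/FUN025 mice were at 264, 284, 302, 254 and 285 CPM, all above every other mouse. The log2 fold change relative to WT was 0.74 in FUN025/FUN025 (SE 0.075, adjusted p = 2.83e-06) and 0.08 in FUN025/+ eyecups (95% interval -0.068 to 0.23, adjusted p = 0.477). Between the mutant genotypes it was 0.66 (SE 0.066, adjusted p = 1.47e-05), which placed Srebf1 at rank 12 by p-value among all genes of that comparison. Gene counts add up the transcripts of all 3 RefSeq start sites of Srebf1, so the 1a and 1c forms cannot be told apart here. Of its 5634 exon bases, 175 are shared with the overlapping genes Rai1 and Mir6922, and Rai1 was at 88.9 ± 1.55 (SD, n = 4), 80.1 ± 5.73 (SD, n = 6) and 86.5 ± 3.91 CPM (SD, n = 5) for 0, 1 and 2 mutant alleles.

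Srebf2, the gene of SREBP-2, rose by less. The WT mice were at 154, 164, 160 and 173 CPM, the FUN025/+ mice ran from 161 through a median of 173 to 197 CPM, and the FUN025/FUN025 mice were at 186, 181, 184, 231 and 203 CPM. All 5 FUN025/FUN025 mice were above all 4 WT mice, with the FUN025/+ mice across both ranges. The log2 fold change relative to WT was 0.27 in FUN025/FUN025 eyecups (SE 0.070, adjusted p = 0.0148), a change of 20.9% (95% interval 9.19% to 33.8%). In FUN025/+ eyecups it was 0.11 (95% interval -0.032 to 0.25, adjusted p = 0.301), and between the mutant genotypes it was 0.16 (95% interval 0.033 to 0.30 before adjustment, adjusted p = 0.598). With the rod and muscle covariates the FUN025/FUN025 difference was 0.35 with a wider SE of 0.13, and did not pass (adjusted p = 0.153). With an offset for GC content, an alternative chosen after seeing the data, the FUN025/+ difference was 0.21 and passed (adjusted p = 0.0453). The gene of the microRNA miR-33 lies within Srebf2, and its listed count was at most 2 in WT and 0 in the 11 mutant libraries, which were made from poly(A) RNA and do not measure small RNAs.

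Scap, the escort of the precursors, was the gene of the group with the lowest fold change. The WT mice were at 154, 139, 151 and 143 CPM, the FUN025/+ mice ran from 138 through a median of 146 to 151 CPM, and the FUN025/FUN025 mice were at 132, 131, 144, 119 and 134 CPM. Of the 5 FUN025/FUN025 mice, 4 were below every WT mouse and 1 lay within the WT range. The log2 fold change was -0.15 in FUN025/FUN025 relative to WT eyecups (SE 0.052, adjusted p = 0.0552) and -0.013 in FUN025/+ eyecups (95% interval -0.12 to 0.092, adjusted p = 0.894). The first of these passed by DESeq2 (adjusted p = 0.0391) and without FUN025/FUN025 replicate 3 (adjusted p = 0.0257). Of the 7443 exon bases of Scap, 985 are shared with 5830462I19Rik on the opposite strand, which was at 28.5 ± 4.07 CPM (SD, n = 4) in WT, 33.0 ± 2.70 CPM (SD, n = 6) in FUN025/+ and 29.0 ± 0.875 CPM (SD, n = 5) in FUN025/FUN025 mice. The strand setting of the counting is not given in the sources used here.

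Mbtps1 and Mbtps2 encode the proteases that cut the precursors in turn. Mbtps1, for the first cut, was at 173 ± 9.15 CPM (SD, n = 4) in WT mice, 176 ± 8.04 CPM (SD, n = 6) with 1 mutant allele and 173 ± 9.32 CPM (SD, n = 5) with 2. The 95% interval of its difference from WT was -5.48% to 9.27% with 1 allele and -7.59% to 7.43% with 2. Mbtps2, for the second cut, was at 45.4, 43.5, 42.2 and 40.3 CPM in the WT mice. It ran from 46.4 through a median of 50.9 to 55.2 CPM in FUN025/+ mice and was at 48.7, 49.0, 49.9, 47.3 and 48.4 CPM in FUN025/FUN025 mice. Every mutant mouse was above every WT mouse. The log2 fold change of Mbtps2 relative to WT was 0.25 in FUN025/+ (SE 0.051, adjusted p = 0.00373) and 0.18 in FUN025/FUN025 eyecups (SE 0.053, adjusted p = 0.0265), and between the mutant genotypes it was -0.061 (95% interval -0.16 to 0.039).

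The FUN025/FUN025 difference of Mbtps2 was the least stable of those that passed. It did not pass without WT replicate 3 (adjusted p = 0.0536), WT replicate 4 (adjusted p = 0.0842), FUN025/FUN025 replicate 2 (adjusted p = 0.0514) or FUN025/FUN025 replicate 3 (adjusted p = 0.0540). Nor did it pass without the filter on low counts (0.18, adjusted p = 0.0620) or with the replicate number as a block (0.18, adjusted p = 0.0662). With the GC offset it was 0.099 (adjusted p = 0.212). Neither Mbtps2 difference from WT passed with the rod and muscle covariates (0.27, SE 0.11, adjusted p = 0.279, and 0.20, SE 0.10, adjusted p = 0.325), and both fold changes were slightly larger than without them. Of the 10105 exon bases of Mbtps2, 2867 are shared with Yy2, a gene inside it that was listed at 0 in all 15 libraries, and 31.3% of its 31-base words occur in other genes.

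**Figure D2:**
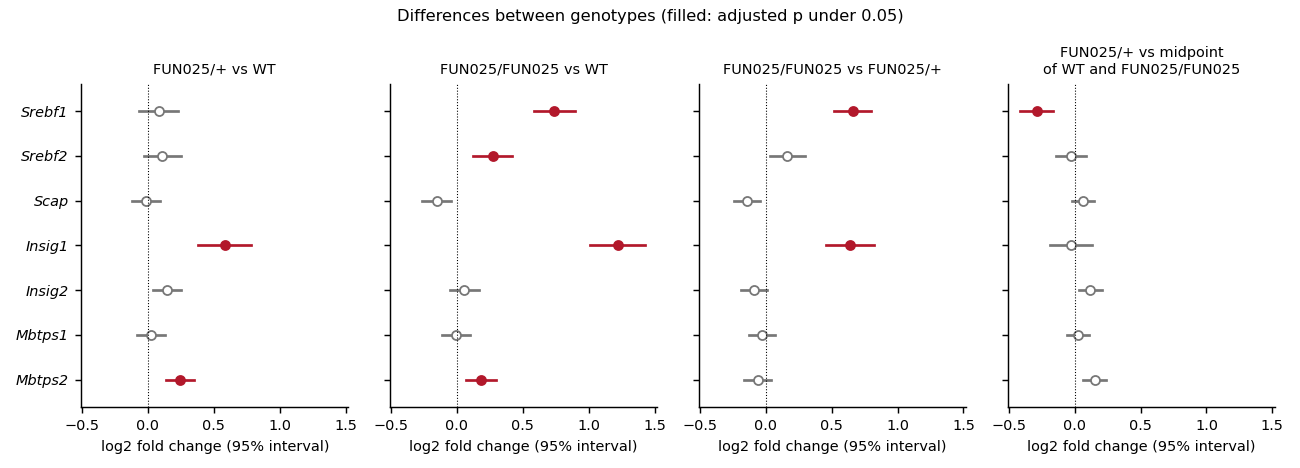
Log2 fold change of each gene (horizontal axis, with its 95% interval) in the 4 comparisons, with filled symbols for an adjusted p under 0.05. Insig1 passed in 3 comparisons, Srebf1 in all but FUN025/+ against WT, and Scap, Insig2 and Mbtps1 in none.

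Counted over the group, 2 of the 7 genes (Insig1 and Mbtps2) passed in FUN025/+ relative to WT eyecups, both higher, where 13.7% of all genes tested passed, 7.09% higher and 6.61% lower. In FUN025/FUN025 relative to WT eyecups 4 of the 7 passed (Insig1, Srebf1, Srebf2 and Mbtps2), all higher, where 14.0% of all genes passed, 7.03% higher and 7.02% lower. Both comparisons use the same 4 WT mice. The median log2 fold change of the 7 genes was 0.11 and 0.18 in these comparisons, and that of all genes tested was -0.0023 and -0.0071. In FUN025/FUN025 relative to FUN025/+ eyecups, which needs no WT mouse, 2 of the 7 passed (Srebf1 and Insig1), both higher, where 0.522% of all genes passed, 0.327% higher and 0.195% lower. With the rod and muscle covariates 0 of the 7 genes passed in FUN025/+ and 2 in FUN025/FUN025 relative to WT eyecups, Insig1 and Srebf1, and the 2 between the mutant genotypes still passed. Of all genes, 0.922% and 2.53% passed relative to WT in that fit.

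The heterozygotes were also compared with the midpoint of the homozygotes. On the log2 scale the FUN025/+ level of Insig1 lay -0.028 from the midpoint of WT and FUN025/FUN025 (95% interval -0.19 to 0.13, adjusted p = 0.883). That of Srebf1 lay 0.29 below the midpoint (log2 difference -0.29, SE 0.059, adjusted p = 0.0132), near the WT level. Srebf1 was the 1 gene of the 7 that departed from the midpoint, where 1.95% of all genes tested did. The departure of Mbtps2 was 0.15 (adjusted p = 0.0631), with the heterozygotes at the higher level. It passed by DESeq2 (adjusted p = 0.0431), with the Xist covariate (0.16, adjusted p = 0.0491), without WT replicate 1 (adjusted p = 0.0405) and without FUN025/+ replicate 1 (adjusted p = 0.0344). The departure of Srebf1 did not pass with the GC offset (-0.24, adjusted p = 0.0523) or with the rod and muscle covariates (-0.14, adjusted p = 0.565).

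Ratios within a mouse do not depend on the scaling of the libraries and are given as a description. The ratio of Insig1 to Insig2, per kilobase, was 0.985 ± 0.146 (SD, n = 4) in WT, 1.34 ± 0.165 (SD, n = 6) in FUN025/+ and 2.22 ± 0.342 (SD, n = 5) in FUN025/FUN025 eyecups. The highest WT mouse (1.151) was just above the lowest FUN025/+ mouse (1.147), so these ranges overlapped slightly, and the FUN025/FUN025 mice began at 1.87. The ratio of Srebf1 to Srebf2 was 1.30 ± 0.140 (SD, n = 4), 1.28 ± 0.0904 (SD, n = 6) and 1.82 ± 0.267 (SD, n = 5), with the lowest FUN025/FUN025 mouse at 1.40 and the highest WT mouse at 1.47. The ratio of Scap to Insig1, the escort to its retainer, was 0.814 ± 0.113 (SD, n = 4), 0.536 ± 0.0627 (SD, n = 6) and 0.313 ± 0.0469 (SD, n = 5), with no overlap between genotypes.

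**Figure D3:**
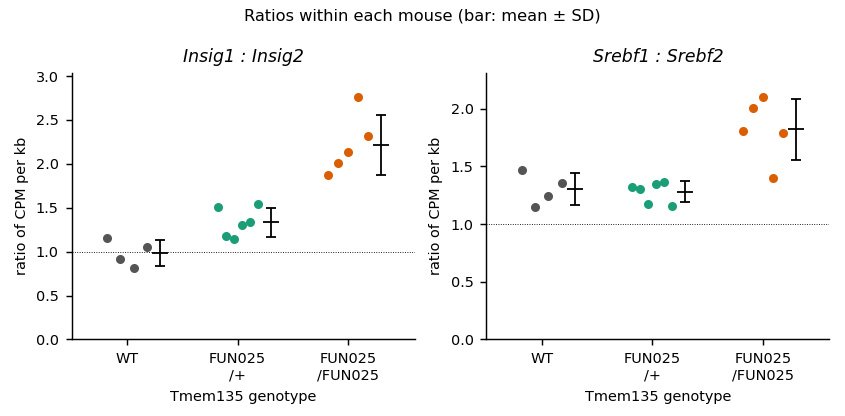
Ratio of CPM per kilobase within each mouse (vertical axis, from 0, dotted line at 1) for Insig1 to Insig2 and Srebf1 to Srebf2 by genotype, with 1 point per mouse and a bar for the mean ± SD. The mean Insig1 to Insig2 ratio was 0.985 in WT and 2.22 in FUN025/FUN025 mice, while the Srebf1 to Srebf2 ratio was alike in WT (1.30) and FUN025/+ mice (1.28).

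The known targets of both factors were counted beside their genes. Of 23 sterol targets, genes of cholesterol synthesis, uptake and transport, 16 rose in FUN025/FUN025 relative to WT eyecups (69.6%, where 7.03% of all genes tested did) and 9 in FUN025/+ eyecups (39.1%, where 7.09% did), and those that passed were all higher. Their median log2 fold change was 0.50 and 0.26. With the lowest adjusted p in FUN025/FUN025 eyecups stood Dhcr7, the last step of cholesterol synthesis, at 25.4 ± 1.46 CPM in WT (SD, n = 4) and 38.7 ± 2.01 CPM (SD, n = 5, log2 fold change 0.61, adjusted p = 3.07e-06). Lss, which closes the sterol rings, Stard4, which carries cholesterol through the cytosol, and Idi1, an isomerase early in the pathway, had log2 fold changes of 0.68, 0.73 and 0.91. In FUN025/+ eyecups Idi1 (0.66), Stard4 (0.48), the synthase gene Hmgcs1 (0.45) and the reductase gene Hsd17b7 (0.44) had the lowest adjusted p. Between the mutant genotypes 1 of the 23 passed, where 0.327% of all genes passed higher: Dhcr7 (log2 fold change 0.32, adjusted p = 0.00640). An unadjusted p under 0.05 was found there for 12 of the 23, beside 1183 of the 18979 genes tested. Lss also passed without FUN025/+ replicate 1, by DESeq2 and without the filter on low counts, and Cyp51, the lanosterol demethylase gene, with the replicate block, which made 2 in each of these fits.

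Of 16 fatty acid targets, 11 rose in FUN025/FUN025 relative to WT eyecups (68.8%, where 7.03% of all genes did) and 5 in FUN025/+ eyecups (31.3%, where 7.09% did), those that passed were all higher, and their median log2 fold change was 0.41 and 0.036. The stearoyl-CoA desaturase gene Scd1 was at 96.2 ± 12.2 CPM in WT (SD, n = 4), 98.2 ± 12.5 CPM with 1 mutant allele (SD, n = 6) and 344 ± 30.9 CPM with 2 (SD, n = 5), so it rose in the homozygotes (log2 fold change 1.84, adjusted p = 3.12e-08), with a log2 fold change of 0.029 in the heterozygotes (adjusted p = 0.881). Its relative Scd2 had log2 fold changes of 1.30 and 0.36, both past the threshold, and the desaturase gene Fads1 of 0.73 and 0.16, also both past it. Acaca, the carboxylase that commits carbon to fatty acids, rose by 0.40 and 0.16. Elovl6, which lengthens fatty acids, and Gpam, which begins glycerolipid synthesis, were the other genes that passed in FUN025/+ eyecups, at 0.32 and 0.27. The 5 were 3 (Elovl6, Scd2 and Gpam) without WT replicate 3, WT replicate 4 or FUN025/+ replicate 3, after thinning, without the filter on low counts and in a fit of WT and FUN025/+ mice alone. With the replicate block 4 passed higher (Acaca, Elovl6, Scd2 and Gpam) and 1, Thrsp, lower, with a median of 0.0066. The FUN025/+ median was 0.080 without WT replicate 4, 0.076 without FUN025/+ replicate 2 and 0.064 without WT replicate 1. It was 0.032 without FUN025/+ replicate 6. Between the mutant genotypes 7 of the 16 passed (43.8%, where 0.327% of all genes did), and those with the lowest adjusted p were Scd1 (1.81), Scd2 (0.94), Fads1 (0.57) and the synthase gene Fasn (0.39). The other log2 fold changes were 1.02 for the lipase gene Pnpla3, 0.41 for Fads2 and 0.25 for Acaca.

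The place of the heterozygote was compared within each list, and a difference between the lists was not tested. From the midpoint of the homozygotes, 4 of the 16 fatty acid targets departed (where 1.95% of all genes did, 1.25% above and 0.701% below the midpoint), Scd1 (-0.89), Scd2 (-0.29), Fads1 (-0.20) and Fasn (-0.18), all toward the WT level, the side on which Srebf1 lay. Of these, Scd1 and Scd2 passed without FUN025/+ replicate 2, and Scd1, Scd2 and Fads1 with the GC offset. With the Xist covariate, and likewise without FUN025/FUN025 replicate 5, all 4 passed and Elovl6 departed above the midpoint. Scd1 alone passed with the rod and muscle covariates, where 0.158% of all genes departed above and 0.0632% below. Of the 23 sterol targets 0 departed in the edgeR fit of all 15 mice. An unadjusted p under 0.05 was found for 4 of the 23 and for 3101 of the 18979 genes tested, a similar share. Of the 23, 1 (Hsd17b7) departed by DESeq2 and in edgeR without FUN025/FUN025 replicate 4. The median of the 23 was 0.035 from the midpoint, where Insig1 lay at -0.028. With the rod and muscle covariates 9 sterol and 7 fatty acid targets passed in FUN025/FUN025 relative to WT eyecups and 1 of each list in FUN025/+ eyecups, where 1.45% and 0.522% of all genes passed higher in that fit. The medians in it were 0.62 and 0.29 for the sterol targets and 0.33 and 0.14 for the fatty acid targets, with 2 and 1 mutant alleles, and between the mutant genotypes the same 7 fatty acid targets passed (7 of 7 shared), all higher, where 0.342% of all genes passed higher and 0.237% lower. The 6 adipocyte markers, from a tissue rich in these enzymes, summed to 18.6 to 53.1 CPM in WT, 9.83 to 17.5 CPM in FUN025/+ and 13.1 to 27.9 CPM in FUN025/FUN025 eyecups, and of them Lep was at 5 counts or fewer. The highest of these sums was in WT. Whether adipose cells had a part in the target levels was not tested.

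**Figure D4:**
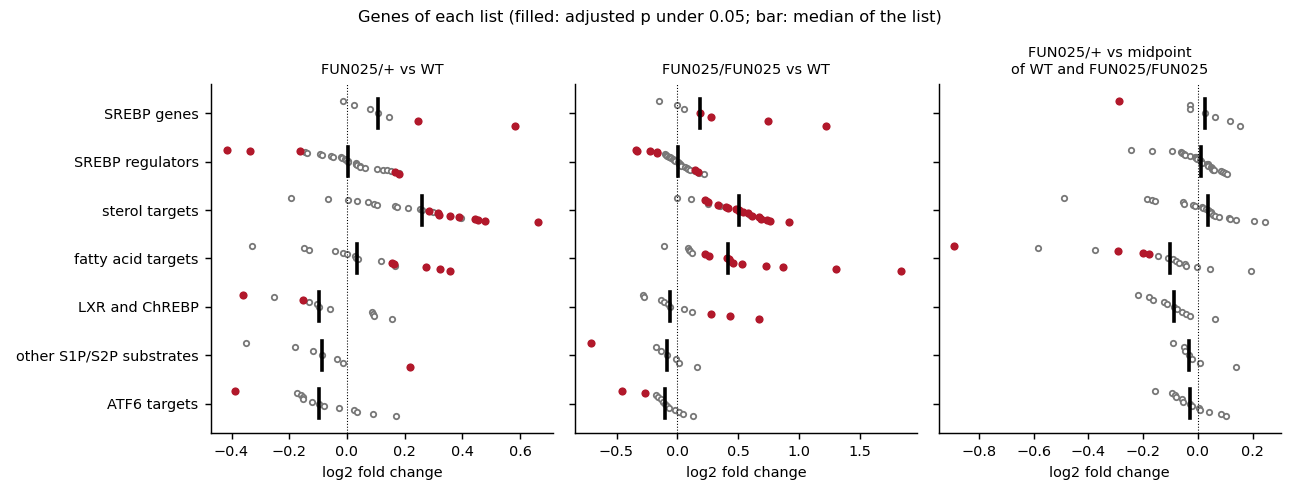
Log2 fold change of each gene of the 7 lists (horizontal axis) in FUN025/+ and FUN025/FUN025 relative to WT and of FUN025/+ relative to the midpoint of the homozygotes, with filled points for an adjusted p under 0.05 and a black bar for each median. Sterol targets lay to the right in both genotypes (medians 0.26 and 0.50), while fatty acid targets did so mainly in FUN025/FUN025 eyecups (0.036 and 0.41).

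Of 29 regulators of the SREBP pathway, from the ubiquitin ligases and extraction factors that act on INSIG to the COPII coat that carries SCAP out of the endoplasmic reticulum, 2 passed higher and 5 lower in FUN025/FUN025 relative to WT eyecups, against 7.03% and 7.02% of all genes. The higher ones were Vcp and Ufd1, parts of the machine that pulls proteins out of the membrane for degradation (log2 fold changes 0.17 and 0.15). The lower ones were the ligase gene Syvn1 (-0.33), Lpin1 (-0.34), whose product can restrain nuclear SREBP, the SREBP coactivator gene Med15 (-0.23), and the COPII genes Sec13 (-0.17) and Sec24b (-0.17). In FUN025/+ eyecups Vcp (0.17) and Erlin2 (0.18), a membrane protein bound to INSIG and its ligases, passed higher, and Syvn1 (-0.34), Lpin1 (-0.42) and Med15 (-0.16) passed lower, where 7.09% of all genes passed higher and 6.61% lower. The median of the 29 was 0.0018 and 0.0039. Between the mutant genotypes 0 of the 29 passed by edgeR or by DESeq2. There 0 of the 29 had an unadjusted p under 0.05, beside 1183 of the 18979 genes tested. Leaving out 1 mouse moved the counts relative to WT, in many of the fits by over 1.5 times. In FUN025/FUN025 relative to WT eyecups 1 passed higher and 2 lower without FUN025/FUN025 replicate 1, 0 and 4 without FUN025/FUN025 replicate 2 or 3 or WT replicate 2, 0 and 3 without WT replicate 4, and 4 and 3 without WT replicate 1. It was 1 and 3 without WT replicate 3, FUN025/+ replicate 2 or FUN025/FUN025 replicate 4 or 5, and 3 and 3 without FUN025/+ replicate 3 or 4. In FUN025/+ eyecups 0 passed higher and 2 lower without WT replicate 4, 1 and 2 without WT replicate 2 or FUN025/+ replicate 3, 2 and 2 without WT replicate 3, 1 and 3 without FUN025/+ replicate 5, and 3 and 3 without WT replicate 1. In either comparison with WT 0 of the 29 passed once rod and muscle covariates were added.

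S1P and S2P also cut other membrane proteins, and 7 of 8 such substrates could be tested, since Creb3l3 had too few counts. In FUN025/+ eyecups 1 of the 7 passed (14.3%, where 13.7% of all genes did), Atf6, the unfolded protein sensor (log2 fold change 0.22, adjusted p = 0.0363). It did not pass without WT replicate 3 or 4 or FUN025/+ replicate 1, 2, 3 or 4, with the GC offset, or in a fit of WT and FUN025/+ mice alone. In FUN025/FUN025 eyecups 1 other, Creb3l1, which acts in collagen-secreting cells, was lower (-0.71, adjusted p = 0.00327), where 7.02% of all genes were. Without WT replicate 1 Atf6b, a relative of Atf6, was called lower as well, which made 2. Both calls were lost with the rod and muscle covariates. Creb3l1 was at 17.7 ± 3.13 CPM in WT (SD, n = 4), 13.8 ± 2.57 CPM in FUN025/+ (SD, n = 6) and 10.7 ± 1.42 CPM in FUN025/FUN025 eyecups (SD, n = 5). Of 13 known targets of cut ATF6, the chaperone gene Hspa5 was lower in both genotypes (-0.39, adjusted p = 0.00131, and -0.46, adjusted p = 3.83e-04) and its partner Hyou1 in FUN025/FUN025 eyecups (-0.27, adjusted p = 0.00509). These are 1 and 2 of the 13 (7.69% and 15.4%), where 6.61% and 7.02% of all genes passed lower. Without WT replicate 1 the counts were 1 higher and 2 lower in FUN025/+ eyecups and 1 higher and 3 lower in FUN025/FUN025 eyecups, where Dnajc3 was the higher one and Xbp1 the added lower one. Without FUN025/+ replicate 2 they were 3 lower in each genotype (Hspa5, Hyou1 and Xbp1), and without FUN025/+ replicate 6 Dnajc3 passed higher beside Hspa5 in FUN025/+ eyecups. With the GC offset 2 and 3 passed lower, with Hsp90b1 added in each, and with the Xist covariate 1 passed higher and 3 lower in FUN025/+ eyecups. The medians of these 13 genes were -0.098 and -0.10. With the rod and muscle covariates the medians were -0.28 and -0.26, and 3 of the 13 passed lower in each genotype (Hspa5, Hyou1 and Manf), where 0.400% and 1.07% of all genes passed lower. By DESeq2 1 ATF6 target (Dnajc3) passed higher and 2 lower in FUN025/+ eyecups.

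Srebf1 transcription is also driven by the liver X receptors, whose genes and targets were counted together. Mlxipl and Mlx, the genes of the sugar-responsive factor ChREBP and its partner, were in the same list. Of these 11 genes 3 rose in FUN025/FUN025 relative to WT eyecups (27.3%, where 7.03% of all genes did): Lpcat3, which remodels phospholipids (log2 fold change 0.67, adjusted p = 1.59e-06), the cholesterol exporter Abca1 (0.43, adjusted p = 0.00859) and Mylip (0.28, adjusted p = 0.00308), a ligase that removes the LDL receptor. The list as a whole did not rise. In FUN025/FUN025 eyecups 5 of the 11 were higher and 6 lower (median log2 fold change -0.058). In FUN025/+ eyecups 4 were higher and 7 lower (median -0.096). Lpcat3 also rose between the mutant genotypes (0.51, adjusted p = 6.31e-05), and there Abca1 passed as well by DESeq2 and without FUN025/FUN025 replicate 4. In FUN025/+ eyecups the receptor genes Nr1h3 (-0.36, adjusted p = 0.0229) and Rxrb (-0.15, adjusted p = 0.0314) were lower (18.2%, where 6.61% of all genes were). Neither was called without WT replicate 3 or WT replicate 4, with the GC offset or with the rod and muscle covariates. Without WT replicate 1, FUN025/+ replicate 2, 3 or 5 Nr1h3 alone was called, and without WT replicate 2 Rxrb alone. With the GC offset the 1 call of the list in FUN025/+ eyecups was Lpcat3, which was higher. In FUN025/FUN025 eyecups Nr1h3 was called lower beside the 3 higher genes after thinning and without WT replicate 1. With the covariates Lpcat3 was the 1 gene of the 3 that passed in FUN025/FUN025 eyecups. Lpcat3 was at 38.8 ± 2.87 CPM in WT (SD, n = 4), 43.3 ± 1.97 CPM in FUN025/+ (SD, n = 6) and 61.9 ± 5.24 CPM in FUN025/FUN025 eyecups (SD, n = 5).

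The genes whose log2 CPM followed each of the 7 most closely over the 15 libraries were found among 14476 protein-coding genes, and the values are descriptions over libraries that share genotype and depth. Insig1 was followed by Idh1 (Pearson r = 0.96), Dhcr7 (0.95) and Stard4 (0.94), and within genotypes these values were 0.35, 0.44 and 0.75. Srebf2 was followed by Nsdhl (0.89), Sqle (0.89) and Msmo1 (0.83), which are all genes of cholesterol synthesis, and within genotypes the values were 0.82, 0.82 and 0.79. Srebf1 was followed by Chrnb4 (0.97), Scd2 (0.95) and Ift57 (0.95), with 0.59, 0.60 and 0.54 within genotypes. Scap was followed by Bmp6 (0.93), Fam180a (0.93) and Tshr (0.91), with 0.84, 0.88 and 0.83 within genotypes. For Insig2 they were Cav2, Ccdc82 and C330007P06Rik (0.82 to 0.89), for Mbtps1 Fkbp15, Atrn and Lamc1 (0.83 to 0.86) and for Mbtps2 Naa30, Ncoa4 and Zmpste24 (0.90 to 0.91).

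Among the 7 genes themselves, Srebf1 and Insig1 had r = 0.86 over all libraries and 0.33 within genotypes. Srebf2 and Insig1 had 0.80 and 0.56. Srebf2 and Scap ran in opposite directions, with r = -0.84 over all libraries and -0.74 within genotypes, so that mice with more Srebf2 transcript than others of their genotype tended to have less Scap transcript. Scap was not alone in this, since within genotypes Srebf2 also had negative values with Mbtps1 (-0.58), Insig2 (-0.56) and Mbtps2 (-0.36). The correlation of Srebf1 with Srebf2 was 0.65 over all libraries and -0.010 within genotypes.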

How the data were processed

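RNA from posterior eyecups was measured by poly(A) RNA-Seq with paired-end reads in 15 libraries. The authors deposited whole-number counts per Ensembl gene and library without normalization. The submitters' processing notes name FastQC 0.11.8, Trimmomatic 0.39, HISAT2 2.1.0, SAMtools, featureCounts 2.0.0 and GRCm38, and strand and multi-mapping settings are not given in the sources used here, so reads of overlapping genes or close copies may be shared or lost. Symbols came from GENCODE M21, in which 55240 of 55421 identifiers matched.

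Genes in the lowest 15% by variance were dropped, then genes with low counts (filterByExpr), which left 18979 genes. Counts were TMM scaled and fitted with edgeR 4.0.16 (robust quasi-likelihood, all 15 mice in 1 fit, R 4.3.3), with Benjamini-Hochberg adjustment over all genes and a threshold of 0.05. Standard errors were taken as the fold change over the root of the F statistic. For likeness, log2 CPM had a prior count of 2, over genes with a mean of at least 1 CPM. The fit was tested on simulated counts. Promoter matches used the 250 bases before each RefSeq start.

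Groups came from the deposited labels. The labels do not say whether mice share litters, so p-values measure the spread between these mice. Replicate numbers did not pair the mice. No 2 libraries of a genotype agreed within sampling noise (mean chi-square per gene 3.23 to 18.9). The members and gene lists were chosen with earlier results of these data known. The 7 genes are given in full, and within another list up to 4 genes with the lowest adjusted p per comparison and any of 5 or fewer called genes are named. One gene of the group's rule is not reported here. Alternatives were RLE scaling, DESeq2 1.42.0, other filters, fewer genotypes in the fit, a replicate block, rod and muscle or Xist covariates, thinning, leaving out each mouse and, chosen after seeing the data, a GC offset and protein-coding genes alone.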

Additional observations from a re-analysis of the deposited data

How the results depend on the processing

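Of 749 refits of a single gene in a single comparison, 697 kept the direction and the side of the threshold, 28 changed sign, 13 lost a pass and 11 gained one. The cause of these changes was not tested. Insig1 and Srebf1 in FUN025/FUN025 relative to WT and to FUN025/+ eyecups passed under every alternative run. By DESeq2, 171 of all genes passed between the mutant genotypes, and 673 of all genes and 2 of the 7 departed from the midpoint, 2 of the 7 also with the Xist covariate. With the rod and muscle covariates, 0 of the 7 and 175 of all genes passed in FUN025/+, 2 and 480 in FUN025/FUN025 relative to WT, and 0 and 42 departed from the midpoint. With these covariates Insig2 turned to -0.048 and -0.11, Mbtps1 in FUN025/+ to -0.027 and, from the midpoint, Srebf2 to 0.026, Insig1 to 0.077 and Mbtps1 to -0.0041. In FUN025/+ relative to WT eyecups Scap turned to 0.010 after thinning, 0.092 with the GC offset and 0.012 among protein-coding genes. In FUN025/FUN025 eyecups Mbtps1 turned to 0.0037 with that offset and 0.018 among protein-coding genes. With the offset 0 of the 7 departed from the midpoint and Srebf2 turned to 0.021 from it, and among protein-coding genes 175 of all genes departed.

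Leaving out each mouse in turn, genes past the threshold relative to WT numbered 1433 to 2719 for 1 mutant allele and 1519 to 2697 for 2, with both minima without WT replicate 4, and from 208 (without FUN025/+ replicate 3) to 525 from the midpoint, where 1 to 2 of the 7 genes passed and leaving out FUN025/+ replicate 2 gave 239. Fold changes that changed sign ran from -0.031 to 0.011 (Scap) and -0.0010 to 0.046 (Mbtps1) in FUN025/+ relative to WT, from -0.031 to 0.026 (Mbtps1) in FUN025/FUN025 relative to WT, from -0.050 to 0.0029 (Mbtps1) between the mutant genotypes, and from -0.064 to 0.0022 (Srebf2) and -0.062 to 0.017 (Insig1) from the midpoint. Labelled replicate numbers did not pair the mice (mean correlation of same-numbered deviations -0.25, -0.067 and 0.055 for the 3 pairs of genotypes). With the number as a block, Mbtps1 turned to 0.017 and Mbtps2 missed the threshold (adjusted p = 0.0662) while Scap passed (adjusted p = 0.0450) in FUN025/FUN025 relative to WT eyecups.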
